A study of Mus musculus with 24 samples.

Results

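The Paneth fraction of small intestinal crypts was compared with the transit-amplifying (TA) fraction of the same 4 control mice. The 8 libraries were those whose titles end in het_pc and het_ta, 4 of each, out of 24 libraries from 8 mice in the series. All of these control mice were Setd1aFC/+; Lgr5-eGFP-CreERT2, so each carried 1 conditional allele of Setd1a, a histone methyltransferase gene, and a tamoxifen-dependent Cre driven from Lgr5, a stem cell gene. Both fractions therefore come from mice exposed to Cre activity and to 1 mg tamoxifen on each of 3 days, with the crypts collected 4 days after induction. No mouse without Cre or without tamoxifen is among the libraries. Crypt cells were dissociated, stained for EpCAM, CD24 and CD45 and with SYTOX blue, a dead cell stain, and sorted by flow cytometry. The gates that defined each fraction are not given in the sources used here. Values of single libraries are given throughout in the order BN44, BO27, BO58, BP03 of the animals.

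Paneth cells sit at the crypt base, where they release lysozyme, α-defensins and other antimicrobial proteins from large granules and give Wnt, EGF and Notch signals to the neighbouring stem cells. TA cells are the dividing progeny of the stem cells and lie above them, and they hold early absorptive and secretory progenitors. CD24 is carried by Paneth cells and also by enteroendocrine cells, which release hormones, and by tuft cells, which sense luminal compounds and parasites, so a gate on CD24 can hold all 3 cell types.

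Counts per gene were tested with edgeR's quasi-likelihood F test, with the animal as a block, and every adjusted p below is from that test after Benjamini-Hochberg adjustment over the 16177 genes tested. Levels are CPM, counts scaled to a common library total, on TMM-scaled library sizes, log2 fold changes are Paneth minus TA, and a gene is called at an adjusted p below 0.05. Paneth libraries held 24.73 to 32.39 M counts and TA libraries 26.57 to 39.76 M, and between 15812 and 16623 genes had at least 10 counts in each. The 10 most abundant genes took 18.75% to 43.6% of the counts in Paneth libraries and 13.05% to 15.12% in TA libraries. In these bulk samples, fewer cells of a type and less RNA per cell cannot be told apart. P-values measure the spread, among these 4 animals, of the difference between the fractions within an animal. For a gene near 0 in TA libraries, the animal block absorbs the spread among Paneth libraries. A small SE or p of such a gene is thus not a measure of agreement between animals. The Paneth library of BO58 stood apart from the other 3 in its share of Paneth granule products, 9.816% of its counts against 32.31% to 52.69%, so counts of several lists are also given without that animal.

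Paneth cell markers were high in the fraction that carries the name, and so were markers of tuft cells. Lyz1, the Paneth cell lysozyme gene, had 96210, 40010, 29940 and 64260 CPM in the Paneth samples, against 173, 94.8, 223 and 108 CPM in the TA samples (log2 fold change 8.55, SE 0.63, edgeR adjusted p = 0.000405). Sh2d6, an adaptor gene used as a tuft cell marker, measured 389, 625, 506 and 464 CPM in the Paneth fraction, against 0, 0, 0.0244 and 0 CPM in TA. Each Paneth library lay above each TA library for both genes. The 4 Paneth libraries held 47280 counts of Sh2d6 and the 4 TA libraries 1 count, a ratio of 83100 at equal depth with a 95% counting interval from 14900 to 3280000. Of the genes of the sort antigens, Cd24a stood at 3900 ± 774 CPM in Paneth and 269 ± 101 CPM in TA libraries (SD, n = 4 each; log2 fold change 3.90, SE 0.27, edgeR adjusted p = 0.000334). Epcam stood at 1166 ± 205 CPM in Paneth and 1869 ± 272 CPM in TA libraries and missed the threshold (edgeR adjusted p = 0.0549). Ptprc, which encodes CD45, gave 21.5, 24.9, 27.4 and 33.6 CPM in the Paneth samples and 0, 0.0314, 0.0244 and 0.412 CPM in the TA samples, and tuft cells are known to carry its transcript.

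Of the 16177 genes tested, 4714 (29.1%) were called. Of these, 2646 (16.4%) were higher and 2068 (12.8%) lower in the Paneth fraction, while all genes together had a median log2 fold change near 0, with 8071 positive and 8106 negative. The 4 Paneth and the 4 TA libraries did not overlap for 5551 genes (34.3%). A change shown to be past 2-fold was called for 1229 genes (7.6%), of which 1022 (6.32%) were higher and 207 (1.28%) lower. The split into higher and lower calls rested on the scaling: with library totals alone 1467 genes were higher and 3772 lower, and the median of all genes was then at -0.51. Leaving out an animal lowered the count of calls to 2420 without BN44, 3082 without BO27, 4481 without BO58 and 2729 without BP03.

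The genes of largest positive fold change came from 3 cell types and from blood. Among the 15 that the naming rule gave were the tuft cell genes Sh2d6, Alox5, Ptgs1, Rgs13 and Dclk1, the hormone genes Iapp, Gip and Sst, the α-defensin genes Defa33, Defa32, Defa20 and Defa34, and the haemoglobin gene Hbb-bs, with Ly6g6f and Asic5. The 15 of largest negative fold change held the goblet cell genes Zg16, Clca1 and Fcgbp, the division genes Cenpi, Cdc20, Kif22, Rrm2 and Kif20a, and the glucuronosyltransferase genes Ugt1a1 and Ugt1a7c. Rbp7 and Rdh7 of retinoid metabolism, Arg2, Edn2 and Gsdmc2 made up the rest. Of these 15, the calls of Ugt1a1, Ugt1a7c, Edn2, Gsdmc2, Kif20a and Zg16 were lost without BN44, and each but those of Ugt1a1 and Gsdmc2 was also lost without at least 1 other animal. By smallest p, Reep5, a gene for a membrane-shaping protein of the endoplasmic reticulum, was at 304, 358, 302 and 322 CPM in the Paneth fraction and 9.56, 13.1, 10.1 and 10.4 CPM in the TA fraction (log2 fold change 4.90, SE 0.18, edgeR adjusted p = 5.81e-05). Shmt1, an enzyme gene of folate metabolism, had 55, 37.8, 34.1 and 43.8 CPM in the Paneth samples, against 198, 156, 162 and 165 CPM in the TA samples (log2 fold change -2.01, SE 0.16, edgeR adjusted p = 0.000522).

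**Figure D1:**
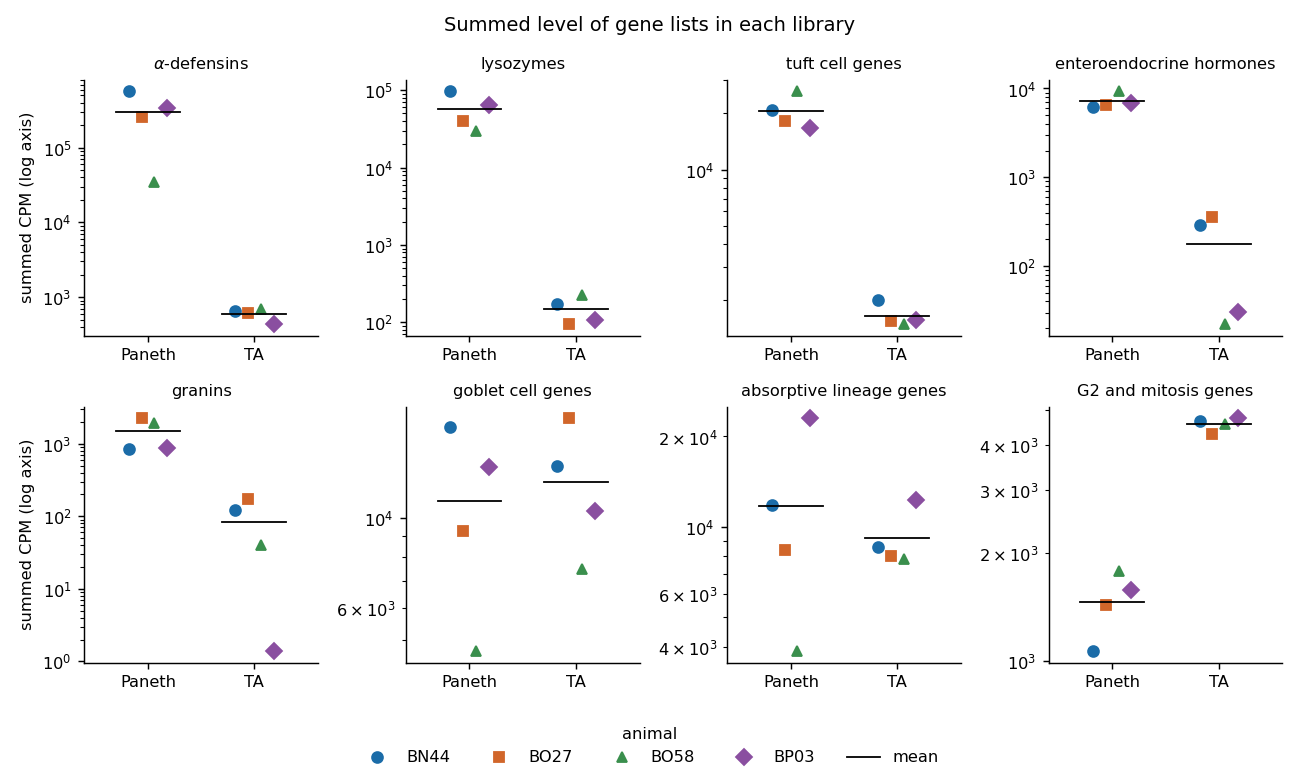
Summed CPM of 8 gene groups in each library on a logarithmic axis, with Paneth libraries left of TA libraries, a point for each animal and a line at the mean. The α-defensin sums lay between 34290 and 566900 CPM in Paneth libraries and between 436 and 693 CPM in TA libraries, and the sums of goblet and absorptive genes overlapped.

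**Figure D2:**
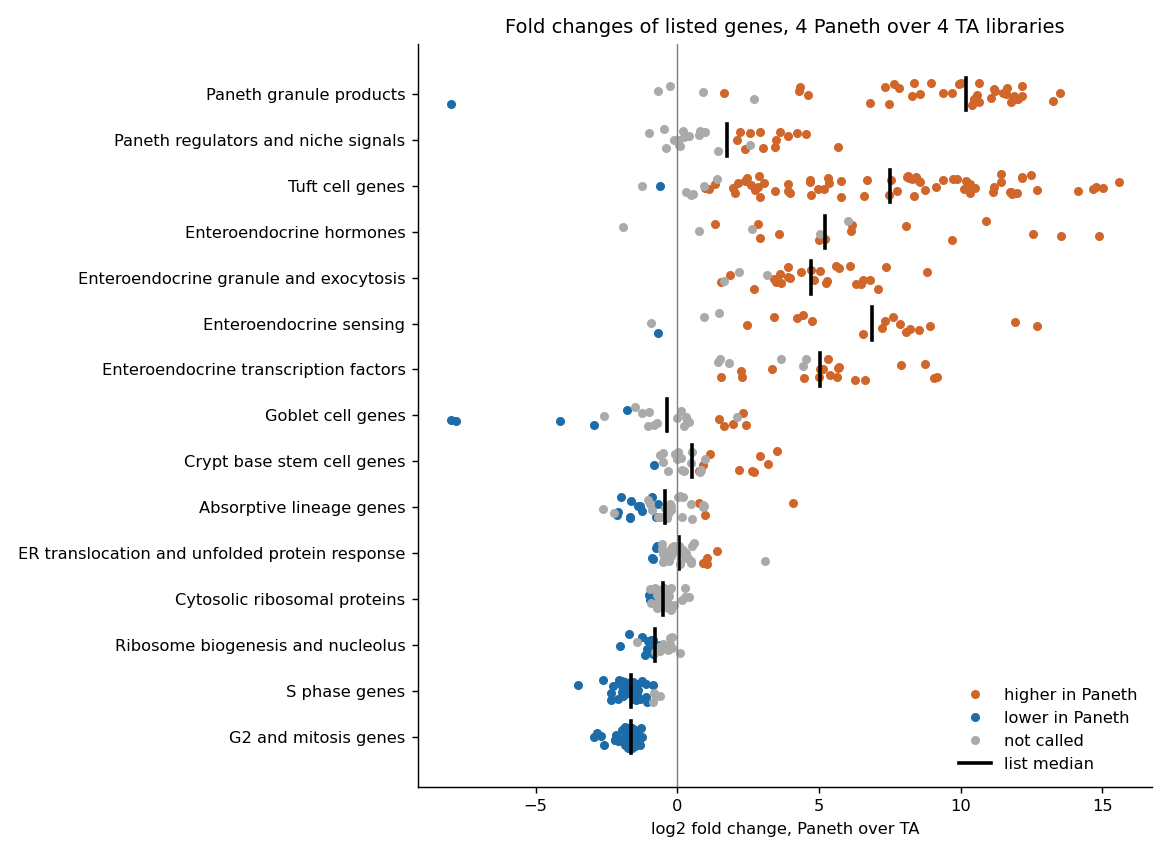
Log2 fold change, Paneth minus TA, of each tested member of the gene lists, with a point for each gene and a line at each list's median. The medians ran from 10.20 for Paneth granule products to -1.64 for G2 and mitosis genes.

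Most genes for the products of Paneth granules were higher in Paneth libraries, and the list took between 9.816% and 52.69% of all counts there. Of 59 listed genes, 44 were tested, 39 were higher, 1 was lower and 4 were not called, with a median log2 fold change of 10.20 beside -0.003 over all genes tested. Without BO58, 40 were higher and the median was 11.30. Lyz2, whose transcript is also known from macrophages and is near-identical to that of Lyz1, measured 162, 55.6, 58.6 and 114 CPM in the Paneth fraction, against 0.31, 0.157, 0.415 and 0.238 CPM in TA (log2 fold change 8.36, SE 0.40, edgeR adjusted p = 0.000117). Mmp7, the protease that cleaves α-defensin precursors in the mouse, gave 5621, 2651, 1199 and 4276 CPM in the Paneth samples and 278, 69.2, 62.8 and 175 CPM in the TA samples (log2 fold change 4.61, SE 0.30, edgeR adjusted p = 0.000282). Lyz1, Lyz2 and Mmp7 were all highest in the Paneth library of BN44.

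Of 42 α-defensin genes listed, 28 were among the genes counted and 27 passed the filter. All 27 were higher, with log2 fold changes from 7.31 to 13.51. A gene near 0 in TA libraries passes the filter only through its Paneth counts, so this count was partly fixed by the filter. The same holds for tuft and enteroendocrine genes near 0 in TA libraries. α-Defensins are short cationic peptides that kill bacteria, and their genes are near-identical copies on mouse chromosome 8, so the split of reads between them is uncertain. Defa24 alone was at 243900, 131000, 17250 and 151500 CPM in the Paneth fraction and 586, 536, 427 and 298 CPM in the TA fraction (log2 fold change 7.84, SE 0.88, edgeR adjusted p = 0.00175). All 27 were highest in the Paneth library of BN44 and lowest in that of BO58. Summed over these 27 and Defa25, which was too low to be tested, the level came to 566900, 258900, 34290 and 334500 CPM in the Paneth fraction and 657, 614, 693 and 436 CPM in the TA fraction. The highest sum was thus 16.5-fold the lowest among Paneth libraries and 1.59-fold among TA libraries, and the lysozyme sum spread 3.21-fold among Paneth libraries. Per length, Defa24 stood at 324400 CPM per kb in Paneth libraries on average, Lyz1 at 45610 and Defa30 at 113900.

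Promoter windows of α-defensin genes are shown because these members moved together. RefSeq windows on GRCm38.p6, from 250 bases before to 50 after a gene's start, were found for 12 of the 27 genes. The TCF/LEF letters CTTTGAT, which Wnt-responsive factors are known to bind, lay on either strand in all 12 (100%), against 327 of 10335 tested genes with a window (3.16%). A second TCF/LEF string that was searched, CTTTGAA, lay in 0 of the 12, against 4.72% of all. The E-box letters CAGATG lay in 11 of the 12 (91.7%), against 13.5% of all, and the letters CCAAT in all 12, against 43.1%. These 12 windows are copies of each other, so the shares are a description of 1 family. The 250 bases before the start are printed 5′ to 3′ for the 3 most abundant such genes in Paneth libraries, with the TCF/LEF letters, here on the other strand as ATCAAAG, in capitals. Positions count the distance of the match's first base from the start site. They are Defa30 (chr8:21134400-21134649, plus strand), Defa32 (chr8:21528780-21529029, plus strand) and Defa21 (chr8:21025295-21025544, plus strand).
Defa30: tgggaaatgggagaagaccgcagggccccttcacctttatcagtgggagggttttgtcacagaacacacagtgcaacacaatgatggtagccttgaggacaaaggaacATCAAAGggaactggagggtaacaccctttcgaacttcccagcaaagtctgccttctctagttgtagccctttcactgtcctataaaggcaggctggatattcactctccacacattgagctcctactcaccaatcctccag
Defa32: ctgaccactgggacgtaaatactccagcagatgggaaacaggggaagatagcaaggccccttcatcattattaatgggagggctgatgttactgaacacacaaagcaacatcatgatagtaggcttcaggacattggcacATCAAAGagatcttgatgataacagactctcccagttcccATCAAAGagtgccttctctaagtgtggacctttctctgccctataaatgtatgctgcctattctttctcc
Defa21: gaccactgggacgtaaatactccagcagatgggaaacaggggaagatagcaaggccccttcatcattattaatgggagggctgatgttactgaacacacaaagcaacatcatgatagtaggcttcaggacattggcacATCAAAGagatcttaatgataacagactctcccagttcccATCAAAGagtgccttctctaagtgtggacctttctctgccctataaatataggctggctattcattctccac
Defa30 held 1 match, at -142, whereas Defa32 held matches at -110 and -70 and Defa21 at -112 and -72.

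The proportions of the α-defensins also differed between the fractions and, among TA libraries, between animals. Defa24 made up 43.03%, 50.6%, 50.3% and 45.29% of the α-defensin sum in the Paneth fraction and 89.2%, 87.31%, 61.61% and 68.31% of it in TA. Defa30 stood at 34.9, 31, 28.3 and 33.5% of Defa24 in the Paneth samples, against 0.71, 3.31, 18.3 and 14.6% in the TA samples. Gm14851 stood at 11.8, 14.7, 16.3 and 15.9% of Defa24 in the Paneth samples, against 0.0177, 1.29, 13.3 and 9.38% in the TA samples. Of the 26 other α-defensins, 17 had their lowest level relative to Defa24 in the TA library of BN44 alone and 5 were tied at 0 between TA libraries, while 16 had their highest among TA libraries in that of BO58 and 9 in that of BP03. Defa17 was an exception, at 10.2, 7.84, 8.81 and 6.54% of Defa24 in the Paneth samples, against 9.51, 5.37, 6.2 and 3.91% in the TA samples.

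**Figure D3:**
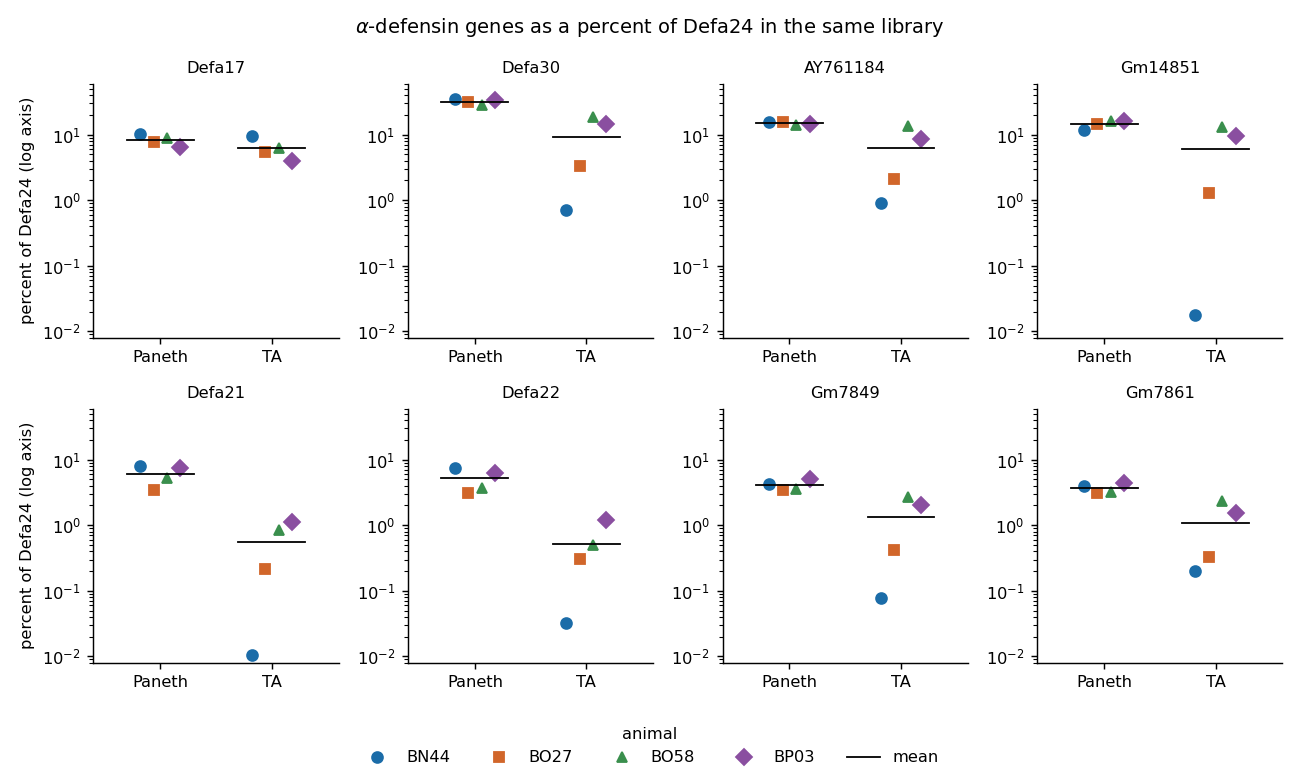
Level of 8 α-defensin genes as a percent of Defa24 in each library, on a logarithmic axis, Paneth libraries left of TA libraries. For genes such as Gm14851 and Defa30 the 4 Paneth libraries lay close together, while the TA libraries spread widely, with BN44 at the low end.

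Other antimicrobial genes were not uniform. Of 14, 9 were higher, 1 was lower and 4 were not called, with a median log2 fold change of 4.32. Itln1, a lectin gene, had 54040, 25560, 15070 and 48790 CPM in the Paneth samples, against 442, 316, 222 and 219 CPM in the TA samples (log2 fold change 6.78, SE 0.50, edgeR adjusted p = 0.000402). Ang4, a microbicidal ribonuclease gene, measured 15310, 15230, 3192 and 17990 CPM in the Paneth fraction, against 24.6, 18.1, 38.6 and 17.9 CPM in TA (log2 fold change 8.95, SE 0.84, edgeR adjusted p = 0.000948). The Paneth library of BO58 was the lowest of its group for both genes. Mptx2, a pentraxin gene, gave 18230, 19860, 1787 and 32170 CPM in the Paneth samples and 0, 4.18, 31.6 and 26.3 CPM in the TA samples (log2 fold change 11.23, SE 2.32, edgeR adjusted p = 0.0127). The C-type lectin genes of the Reg3 family overlapped between the fractions: Reg3g was at 8002, 3476, 644 and 16150 CPM in the Paneth fraction and 2551, 1918, 1475 and 3803 CPM in the TA fraction (log2 fold change 0.91, SE 0.57, edgeR adjusted p = 0.265). Zg16, a lectin gene of goblet cell mucus, was the member that was lower, a call lost without BN44, BO27 or BO58 in turn.

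Regulators and niche signals of Paneth cells were higher in part. Of 30 listed genes, 28 were tested, 13 were higher and 15 were not called, with a median log2 fold change of 1.76. Wnt3, the Wnt ligand gene of Paneth cells, had 55.5, 46.5, 17.1 and 31.4 CPM in the Paneth samples, against 2.26, 1.45, 1.46 and 0.954 CPM in the TA samples (log2 fold change 4.55, SE 0.35, edgeR adjusted p = 0.000443). Dll4, a Notch ligand gene, measured 17.4, 19.2, 13.9 and 16.8 CPM in the Paneth fraction, against 7.12, 3.93, 2.49 and 2.34 CPM in TA (log2 fold change 2.22, SE 0.35, edgeR adjusted p = 0.00543). Egf gave 9.89, 4.38, 12.5 and 7.83 CPM in the Paneth samples and 3.04, 1.29, 1.05 and 0.152 CPM in the TA samples (log2 fold change 3.04, SE 0.77, edgeR adjusted p = 0.025). No Paneth library overlapped the TA libraries for these 3 ligands, although the call of Egf was lost without BN44 and without BO58. Tgfa and Dll1 missed the threshold, at log2 fold changes of 0.08 and 0.25 with an SE of 0.25 and 0.28 (edgeR adjusted p = 0.822 and edgeR adjusted p = 0.54).

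Among transcription factor genes, Sox9, which Paneth cells need to form, was at 282, 273, 121 and 205 CPM in the Paneth fraction and 32.9, 32.8, 32.5 and 16.7 CPM in the TA fraction (log2 fold change 2.92, SE 0.30, edgeR adjusted p = 0.00136). Bhlha15, which builds secretory capacity, had 48.2, 17.8, 5.14 and 33 CPM in the Paneth samples, against 3.23, 1.63, 1.05 and 1.8 CPM in the TA samples (log2 fold change 3.48, SE 0.39, edgeR adjusted p = 0.00177). Foxa3 was the other of 3 factors called, of 11 tested. Atoh1, the master gene of the secretory lineages, measured 71.4, 37.1, 8.95 and 55.7 CPM in the Paneth fraction, against 34.1, 35.4, 25.6 and 28 CPM in TA (log2 fold change 0.19, SE 0.44, edgeR adjusted p = 0.765). Its Paneth libraries lay on both sides of the TA libraries, with that of BO58 the lowest of all 8. Gfi1, Spdef and Xbp1, which also act in secretory cells, missed the threshold too. Of the surface genes, Kit, the stem cell factor receptor, gave 121, 82.7, 68.3 and 73 CPM in the Paneth samples and 9.62, 7.1, 7.05 and 7.35 CPM in the TA samples (log2 fold change 3.44, SE 0.19, edgeR adjusted p = 0.000184), and Habp2 and Nupr1 had log2 fold changes of 5.67 and 3.61 with SE 0.63 and 0.31.

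Most tuft cell genes, the longest of the lists, were higher in Paneth libraries, beside 16.4% higher over all genes. Of 84 listed, 74 were tested, 67 were higher, 1 was lower and 6 were not called, with a median log2 fold change of 7.49. Their summed level came to 20760, 18230, 26120 and 16650 CPM in the Paneth fraction and 2010, 1564, 1496 and 1572 CPM in the TA fraction. The sum varied 1.57-fold among Paneth libraries, and 35 of the 74 genes were highest in the Paneth library of BO58, the one that was lowest for α-defensins. In that of BP03, 34 were lowest. Without BO58, 64 were higher and the median was 7.12. Krt18, a keratin gene of simple epithelia, made up the largest part of the TA sums, at 775, 501, 429 and 505 CPM.

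The factors that set tuft cell fate were near 0 in TA libraries. Pou2f3, the master regulator of tuft cells, was at 167, 192, 179 and 107 CPM in the Paneth fraction and 0.103, 0, 2.12 and 1.02 CPM in the TA fraction (log2 fold change 8.10, SE 0.99, edgeR adjusted p = 0.00239). Spib and Gfi1b had log2 fold changes of 10.33 and 9.12 (SE 0.78 and 0.83). Hmx2 had 0 counts in all 4 TA libraries and was at least 993-fold higher in Paneth libraries, taking 3 counts over the group as the limit that 0 allows. Ascl2 and Ahr, which other crypt cells also express, were not called.

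The taste-type transduction genes of tuft cells were higher, with 11 of 12 tested called. Trpm5, the cation channel at the end of this cascade, had 399, 397, 549.7 and 347 CPM in the Paneth samples, against 0, 0, 0.0732 and 0.716 CPM in the TA samples (log2 fold change 11.41, SE 1.00, edgeR adjusted p = 0.000716). Rgs13, a regulator of G protein signalling, measured 2442, 1179, 4098 and 2091 CPM in the Paneth fraction, against 0, 0.251, 0.171 and 0 CPM in TA (log2 fold change 14.66, SE 1.01, edgeR adjusted p = 0.000316). Both genes were highest in the Paneth library of BO58. Gnat3, the gustducin gene, and Sucnr1, the receptor for succinate, had 0 counts in the TA libraries and were at least 555-fold and at least 966-fold higher in Paneth libraries. Plcb2 had 5451 counts in Paneth libraries and 2 in TA libraries, a ratio of 4790 (95% counting interval 1330 to 39600). Itpr3, a calcium release channel gene, was the member not called (log2 fold change 0.30, SE 0.24, edgeR adjusted p = 0.388).

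All 6 eicosanoid genes tested were higher. These enzymes make leukotrienes and prostaglandin D2, effectors of tuft cells. Alox5 was at 122, 154, 153 and 92.4 CPM in the Paneth samples and 0, 0, 0 and 0 CPM in the TA samples, at least 7318-fold higher (edgeR adjusted p = 0.000422). Alox5ap, whose protein presents the substrate to ALOX5, gave 437, 485, 912 and 432 CPM in the Paneth samples and 0.58, 0.314, 0.732 and 0.303 CPM in the TA samples (log2 fold change 10.18, SE 0.31, edgeR adjusted p = 2.97e-05). The Paneth library of BO58 stood apart at the high end for Alox5ap and not for Alox5. Ptgs1 was at least 5938-fold higher, with 0 counts in TA libraries, and Hpgds, the prostaglandin D2 synthase gene, was at 290, 196, 473 and 218 CPM in the Paneth fraction and 0.538, 1.04, 3.78 and 0 CPM in the TA fraction (log2 fold change 8.43, SE 0.87, edgeR adjusted p = 0.00136).

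Of the cytokine and surface genes 9 of 10 tested were higher, and of the cytoskeleton genes 7 of 9. Il25, the cytokine by which tuft cells alert type 2 immunity, had 1.28, 5.88, 7.89 and 1.52 CPM in the Paneth fraction, with 0 counts in TA libraries (at least 243-fold higher, edgeR adjusted p = 0.00822). Dclk1, a microtubule-associated kinase gene, had 879, 930.3, 1147 and 669 CPM in the Paneth samples, against 0, 0.0942, 0.122 and 0 CPM in the TA samples (log2 fold change 14.13, SE 0.63, edgeR adjusted p = 8.43e-05). For Il25 the 2 libraries of BO27 and BO58 were above those of BN44 and BP03, while Dclk1 was more even. All 14 tested genes of the haematopoietic signalling type were higher, among them Bmx (10.11), Matk (10.49) and Inpp5d (8.51 log2). Chat, which makes acetylcholine, was at least 853-fold higher, and Cwh43 at least 1255-fold. Pls1, a brush border actin bundler that absorptive cells also use, was the 1 member that was lower (log2 fold change -0.60, SE 0.18, edgeR adjusted p = 0.0447), a call lost without BN44, BO27 or BP03.

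Promoter windows of 60 of the 74 tuft cell genes were searched for the octamer ATGCAAAT, which POU factors such as POU2F3 are known to bind, on either strand. It lay in 5 (8.33%), namely Kctd12, Hpgds, Itpr3, Sucnr1 and Il4ra, against 176 of 10335 tested genes (1.7%), and Itpr3 was not a gene that was called. The share was 2 of 11 in windows of the Notch list (18.2%), 8% in those of Paneth regulators and 6.67% in those of absorptive genes. In all, 15 motifs were searched. Kctd12, a receptor-associated tetramerisation protein gene, measured 2484, 2082, 2834 and 1596 CPM in the Paneth fraction, against 5.34, 12.6, 5.05 and 7.31 CPM in TA (log2 fold change 8.28, SE 0.46, edgeR adjusted p = 0.000184). The bases before the start of the 2 most abundant of the 5 are printed 5′ to 3′ with the octamer in capitals, at -160 in Kctd12 (chr14:102982638-102982887, minus strand) and at -174 in Hpgds (chr6:65144731-65144980, minus strand).
Kctd12: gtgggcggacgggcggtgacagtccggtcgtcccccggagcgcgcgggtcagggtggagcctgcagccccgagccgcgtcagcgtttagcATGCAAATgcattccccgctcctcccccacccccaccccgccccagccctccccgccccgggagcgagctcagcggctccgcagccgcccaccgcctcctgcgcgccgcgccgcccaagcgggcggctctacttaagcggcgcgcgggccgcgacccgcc
Hpgds: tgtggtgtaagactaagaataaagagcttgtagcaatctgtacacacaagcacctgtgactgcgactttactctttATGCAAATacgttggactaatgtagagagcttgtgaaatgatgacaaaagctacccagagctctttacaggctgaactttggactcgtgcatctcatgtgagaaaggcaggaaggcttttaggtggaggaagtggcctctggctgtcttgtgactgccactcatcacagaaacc
A match describes letters in the window and is not evidence of a binding site.

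Hormone genes of enteroendocrine cells were higher in Paneth libraries. Of the hormone genes named here and below, Gip had the highest level in the Paneth libraries of BN44, BO27 and BP03, and Gcg in that of BO58. Of 21 listed genes for hormones and serotonin synthesis, 19 were tested, 14 were higher and 5 were not called, with a median log2 fold change of 5.21, and 12 were higher without BO58. Gip, the incretin gene of K cells, gave 2605, 3098, 2586 and 2445 CPM in the Paneth samples and 0, 0.691, 0.439 and 0.065 CPM in the TA samples (log2 fold change 13.54, SE 0.98, edgeR adjusted p = 0.000373). Sst, the somatostatin gene of D cells, was at 1319, 301, 1616 and 1487 CPM in the Paneth fraction and 0, 0, 0.366 and 0.585 CPM in the TA fraction (log2 fold change 12.56, SE 0.85, edgeR adjusted p = 0.00031). The Paneth library of BO27 was the lowest for Sst, whereas Gip was within a narrow range. Ghrl, the ghrelin gene, had 515, 708, 604 and 1423 CPM in the Paneth samples, against 0.435, 0.723, 0.464 and 0.0434 CPM in the TA samples (log2 fold change 10.88, SE 0.81, edgeR adjusted p = 0.000414). Iapp had 108, 4.34, 236 and 99 CPM in the Paneth fraction, with 0 counts in TA libraries, at least 6608-fold higher.

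Gcg, the gene for GLP-1, did not pass the test despite its level. It measured 1018, 1153, 3462 and 339 CPM in the Paneth fraction, against 149, 238, 0.0488 and 4.16 CPM in TA (log2 fold change 5.05, SE 1.93, edgeR adjusted p = 0.0901). Every Paneth library was above every TA library, but the TA libraries of BN44 and BO27 were far above those of BO58 and BP03. Cck, the cholecystokinin gene, gave 153, 417, 334 and 278 CPM in the Paneth samples and 58.3, 16.5, 0 and 0.889 CPM in the TA samples (log2 fold change 6.18, SE 1.83, edgeR adjusted p = 0.0427), with the same TA libraries high. The call of Cck was lost without BO27, BO58 or BP03 (edgeR adjusted p = 0.0802, 0.0699 and 0.121) and without the animal block (0.0541). Tph1, the first enzyme of serotonin synthesis in enterochromaffin cells, was at 79.7, 252, 268 and 7.18 CPM in the Paneth fraction and 19.6, 19.5, 8.2 and 0.607 CPM in the TA fraction (log2 fold change 3.58, SE 0.49, edgeR adjusted p = 0.00333). Its Paneth library of BP03 lay below 3 TA libraries, so the groups overlapped.

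Granule, processing and exocytosis genes were higher for 26 of 29 tested, with 3 not called and a median log2 fold change of 4.72. All 7 granin genes tested were higher. Scgn, which encodes a calcium sensor of endocrine cells, had 209, 276, 599 and 309.6 CPM in the Paneth samples, against 2.79, 0.157, 0.659 and 0.499 CPM in the TA samples (log2 fold change 8.81, SE 0.82, edgeR adjusted p = 0.000939). Chgb, a granin that fills dense-core granules, measured 401, 1345, 894 and 375 CPM in the Paneth fraction, against 91.3, 118, 20.2 and 0.065 CPM in TA (log2 fold change 4.83, SE 1.41, edgeR adjusted p = 0.0404). The call of Chgb was lost without BN44, BO27 or BO58 (edgeR adjusted p = 0.0506, 0.0734 and 0.119). Among TA libraries, Chgb was highest in those of BO27 and BN44 and Scgn in that of BN44. The granin sum came to 854, 2234, 1919 and 880.5 CPM in the Paneth fraction and 122, 171, 39.6 and 1.39 CPM in the TA fraction, so it spread 2.62-fold among Paneth and 123-fold among TA libraries. Of the processing genes, Pcsk1, a prohormone convertase, and Cpe, a carboxypeptidase, had log2 fold changes of 3.61 and 6.82 (SE 0.66 and 1.27).

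Receptors and channels by which enteroendocrine cells sense nutrients were higher in 16 of 20 tested genes, with a median of 6.88 (6.54 with genes at 0 set to their bound). Ffar3, a receptor for short-chain fatty acids, was at least 1400-fold higher and Galr1 at least 924-fold, both with 0 counts in TA libraries. Cnr1, a cannabinoid receptor gene, gave 19.7, 27.6, 27.2 and 6.79 CPM in the Paneth samples and 0, 0.0628, 0.366 and 0 CPM in the TA samples (log2 fold change 8.09, SE 0.86, edgeR adjusted p = 0.00152). Abcc8 and Kcnj11, subunits of the ATP-sensitive potassium channel, had log2 fold changes of 8.23 and 7.63 (SE 1.32 and 1.32). Slc5a1, the glucose transporter gene that absorptive cells also use, was the 1 lower gene (log2 fold change -0.70, SE 0.22, edgeR adjusted p = 0.0482), a call lost without BN44, BO58 or BP03.

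Enteroendocrine transcription factors were higher in 19 of 25 tested genes, 6 were not called, and the median log2 fold change was 5.02. Without BO58, 15 were higher and the median was 4.25. Isl1 was at 111, 124, 273 and 126 CPM in the Paneth fraction and 0.248, 1.41, 0 and 0 CPM in the TA fraction (log2 fold change 9.17, SE 1.12, edgeR adjusted p = 0.00239). Pax6 had 45, 95.7, 48.4 and 60.2 CPM in the Paneth samples, against 1.7, 2.98, 0.122 and 0.173 CPM in the TA samples (log2 fold change 6.29, SE 0.79, edgeR adjusted p = 0.00254). Both act in differentiated endocrine cells, and both were lowest in the TA libraries of BO58 and BP03. Neurog3, the transient gene of endocrine progenitors, measured 2.01, 20.1, 21.5 and 9.22 CPM in the Paneth fraction, against 3.5, 1.89, 1.1 and 0 CPM in TA (log2 fold change 3.67, SE 1.47, edgeR adjusted p = 0.102). Its groups overlapped, and BN44 was higher in the TA than in the Paneth library. Neurod1, downstream of Neurog3, gave 101, 250.3, 229.7 and 122 CPM in the Paneth samples and 21.9, 24.3, 2.02 and 0.0217 CPM in the TA samples (log2 fold change 5.14, SE 1.36, edgeR adjusted p = 0.0292), and its call was lost without BO58.

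**Figure D4:**
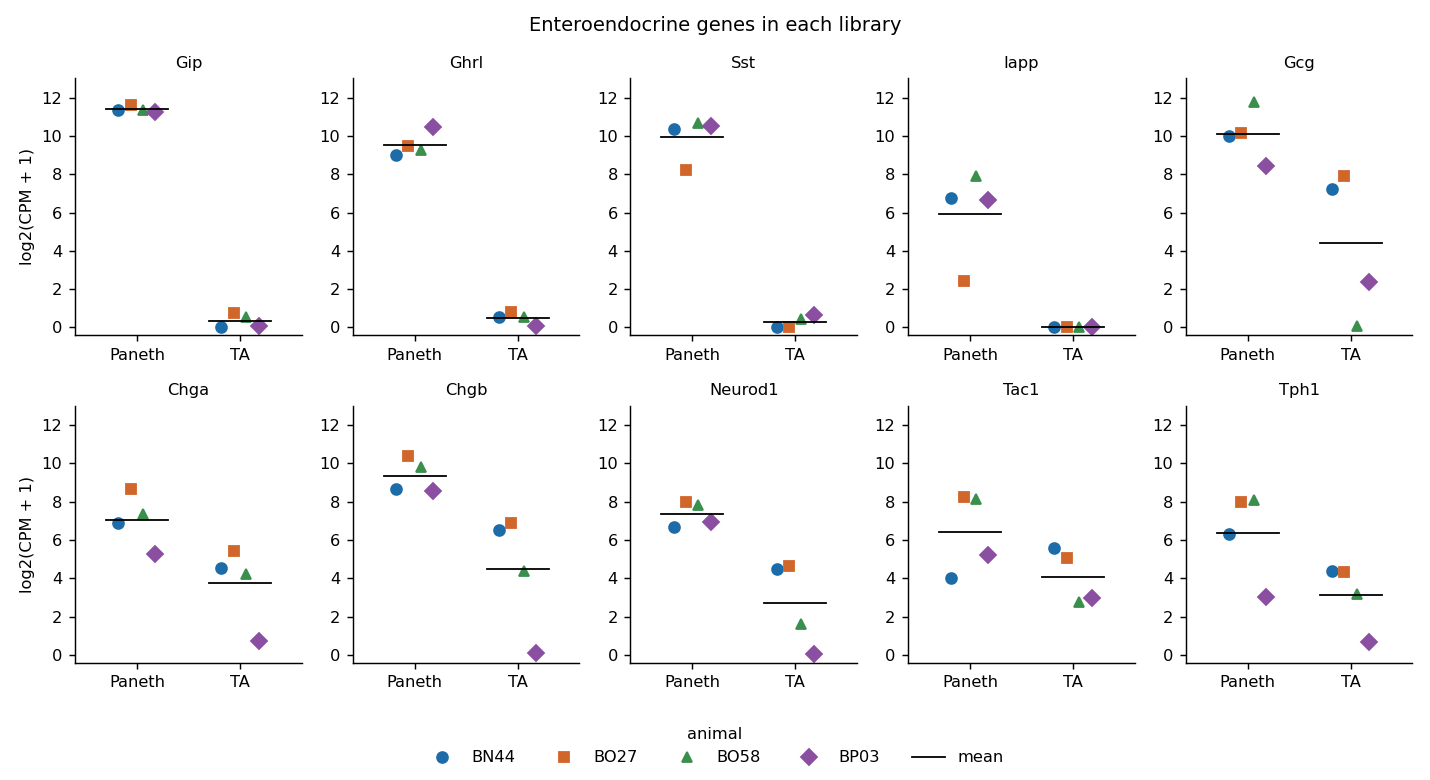
Log2 CPM, after adding a small constant, of enteroendocrine genes in each library on a linear axis, Paneth libraries left of TA libraries, a point for each animal. Chgb, Neurod1 and Gcg were higher in the TA libraries of BN44 and BO27 than in those of BO58 and BP03, while Gip, Ghrl and Sst were near 0 in all 4 TA libraries.

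Goblet cell genes were called in both directions, with counts that depended on the scaling and on single animals. Of 24 tested, 5 were higher (Spink4, Ccl6, Ccl9, Hepacam2 and Fxyd3), 5 were lower (Fcgbp, Clca1, Zg16, Bcas1 and Tpsg1) and 14 were not called, with a median log2 fold change of -0.37, beside 16.4% higher and 12.8% lower over all genes. With library totals alone 3 were higher and 12 lower, without BN44 3 and 3, without BO27 3 and 4, and without BP03 3 and 8. Clca1, a secreted processor of mucus, was at 1.59, 1.2, 0.109 and 54.6 CPM in the Paneth fraction and 590.1, 693, 164 and 432 CPM in the TA fraction (log2 fold change -7.81, SE 1.36, edgeR adjusted p = 0.00709). Fcgbp, a mucus component, had 96.6, 67.2, 36.8 and 344 CPM in the Paneth samples, against 1989, 3090, 856 and 1274 CPM in the TA samples (log2 fold change -4.14, SE 0.62, edgeR adjusted p = 0.00465). The Paneth library of BP03 was the highest of its group for both, and for Zg16 with 0.228, 11, 4.89 and 399 CPM in the Paneth fraction and 1586, 3964, 1217 and 1331 CPM in TA (log2 fold change -7.98, SE 1.89, edgeR adjusted p = 0.0201). The call of Zg16 was lost without BN44, BO27 or BO58 (edgeR adjusted p = 0.0541, 0.0743 and 0.0792) and without the animal block (0.0727, at a log2 fold change of -4.29). Muc2, the main mucin gene, measured 1367, 489.5, 106 and 796 CPM in the Paneth fraction, against 1329, 1760, 408 and 981 CPM in TA (log2 fold change -1.01, SE 0.40, edgeR adjusted p = 0.0983). Spink4, which Paneth cells share with goblet cells, gave 7306, 2736, 380.3 and 2544 CPM in the Paneth samples and 1047, 982, 406 and 539.8 CPM in the TA samples (log2 fold change 1.63, SE 0.49, edgeR adjusted p = 0.0447), and its groups overlapped. Its call was lost without BN44, BO27 or BP03.

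Absorptive lineage genes were lower for 12 of 39 tested, higher for 3 and not called for 24, with a median log2 fold change of -0.44. Over all genes 12.8% were lower and 16.4% higher. The summed level overlapped between the fractions, at 11840, 8361, 3865 and 22980 CPM in Paneth and 8559, 8032, 7833 and 12270 CPM in TA libraries. Hnf4g, a nuclear receptor of enterocyte identity, had 12.7, 23.9, 58.5 and 51.3 CPM in the Paneth samples, against 51.8, 189.9, 125 and 254 CPM in the TA samples (log2 fold change -2.11, SE 0.31, edgeR adjusted p = 0.00432). Its groups overlapped. Dgat1, Khk and Prap1 were also lower, with log2 fold changes of -1.62, -1.66 and -2.12. Fabp1, a fatty acid carrier, measured 128, 865, 84 and 289 CPM in the Paneth fraction, against 32.7, 210.2, 112 and 279 CPM in TA (log2 fold change 0.91, SE 0.47, edgeR adjusted p = 0.184). The 3 higher genes were Slc15a1, a peptide transporter (4.10), Vil1 (0.97) and Anpep (0.76 log2), of which Vil1 also belongs to the tuft cell list. The calls of Vil1 and Anpep were lost with library totals alone, and that of Anpep without BN44, BO27 or BP03. Without BO58, 5 were higher and 11 lower, and without BN44 2 and 8.

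Genes of crypt base stem cells were higher in part and mostly not called. Of 25 tested, 9 were higher, 1 was lower (Cdca7, a call lost without BN44, BO58 or BP03) and 15 were not called. Over all genes 16.4% were higher and 12.8% lower. The median log2 fold change was 0.52, with 18 fold changes above 0 and 7 below. With library totals alone 6 were higher and 4 lower, and the median was -0.03. Lgr5, the R-spondin receptor gene that also drives Cre here, gave 57.8, 46.9, 45.3 and 50.8 CPM in the Paneth samples and 12.2, 9.17, 5.29 and 5.55 CPM in the TA samples (log2 fold change 2.72, SE 0.26, edgeR adjusted p = 0.000971). Olfm4, another stem cell gene, was at 3303, 4199, 3322 and 4650 CPM in the Paneth fraction and 7299, 5118, 5997 and 4043 CPM in the TA fraction (log2 fold change -0.52, SE 0.32, edgeR adjusted p = 0.255). So Lgr5 was apart in all 4 animals and Olfm4 overlapped. In 1 fit with the stem fraction of the same animals, Lgr5 averaged 53.8 ± 6.66 CPM in Paneth, 161 ± 14.3 in stem and 8.64 ± 3.67 in TA libraries (SD, n = 4 each). Olfm4 averaged 4142 ± 727 CPM in Paneth, 28000 ± 3148 in stem and 6007 ± 1570 in TA libraries. Msi1, Phlda1, Tnfrsf19 and Fstl1 had log2 fold changes of 3.50, 3.21, 2.62 and 2.17, the call of Tnfrsf19 was lost without BO27, and Axin2, a Wnt target, was not called (log2 fold change 0.98, SE 0.43, edgeR adjusted p = 0.13).

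Most genes of Notch signalling and lateral inhibition were not called. Of 19 listed, 14 were tested, with 4 higher, 1 lower (the Notch target Hes1) and 9 not called. Over all genes 16.4% were higher and 12.8% lower. The higher genes were the Notch ligand genes Dll3, Dll4 and Jag2, and Mib1, whose call was lost without BN44, BO27 or BP03. The ligand gene Dll1, given above, was not called. The median log2 fold change was 0.28 (-0.24 with library totals alone). Hes1, the repressor that keeps cells from the secretory fate, had 37.5, 33.1, 24.6 and 40.5 CPM in the Paneth samples, against 54.4, 137, 103 and 76.9 CPM in the TA samples (log2 fold change -1.40, SE 0.31, edgeR adjusted p = 0.0154). The groups did not overlap, and the call was lost without BO27. Jag2 measured 3.15, 5.88, 6.37 and 5.79 CPM in the Paneth fraction, against 0.497, 1.23, 0.317 and 0.759 CPM in TA (log2 fold change 3.01, SE 0.58, edgeR adjusted p = 0.0103). Dll3 had 148 counts in Paneth libraries and 1 in TA libraries, a ratio of 260 (95% counting interval 46 to 10300).

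Genes of DNA replication and of mitosis were lower in the Paneth fraction. Of 47 S phase genes tested, 43 were lower and Pold1, Pold3, E2f1 and Mybl2 were not called, with a median log2 fold change of -1.63. All 43 G2 and mitosis genes were lower, with a median of -1.64. The S phase sum came to 1065, 1019, 1601 and 1594 CPM in the Paneth fraction and 3828, 3125, 3920 and 4465 CPM in the TA fraction. The G2 and mitosis sum came to 1067, 1437, 1781 and 1582 CPM in the Paneth fraction and 4685, 4295, 4585 and 4755 CPM in the TA fraction. For both sums each Paneth library was below each TA library, and none of the Paneth libraries was near 0.

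All 13 licensing and helicase genes were lower, and Mcm3 had the largest change of these at -2.34 (SE 0.37). Rrm2, a subunit of ribonucleotide reductase, gave 28.9, 22.2, 51.5 and 43.1 CPM in the Paneth samples and 191, 166, 212 and 320.2 CPM in the TA samples (log2 fold change -2.64, SE 0.21, edgeR adjusted p = 0.000482). Fen1, the flap endonuclease of lagging-strand synthesis, had a log2 fold change of -3.51 (SE 0.62). Mki67, the proliferation marker, was at 60, 70.3, 76.6 and 62.6 CPM in the Paneth fraction and 116, 197, 175 and 183 CPM in the TA fraction (log2 fold change -1.29, SE 0.17, edgeR adjusted p = 0.00329). Cdc20, an activator of the anaphase-promoting complex, had 11.4, 5.71, 19.1 and 14.8 CPM in the Paneth samples, against 144, 74, 73.4 and 83.6 CPM in the TA samples (log2 fold change -2.94, SE 0.35, edgeR adjusted p = 0.00215). Cdk1, the mitotic kinase, measured 40, 54.5, 79.9 and 44.5 CPM in the Paneth fraction, against 241, 162, 211 and 213 CPM in TA (log2 fold change -1.96, SE 0.24, edgeR adjusted p = 0.00253). No Paneth library overlapped the TA libraries for Rrm2, Mki67, Cdc20 or Cdk1.

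Promoter windows of these 2 lists held different letters. The E2F letters TTCCCGC lay in 16 of 36 windows of S phase genes (44.4%), in 0 of 37 of G2 and mitosis genes and in 994 of 10335 tested genes (9.62%). Of the E2F strings searched, this had the highest share in S phase windows. The others, TTTGGCGC, TTTCCCGC and GGCGGGAA, lay in 16.7%, 19.4% and 22.2% of these and in 1.1%, 2.25% and 4.76% of all. TTTGGCGC also lay in 1 of 37 windows of G2 and mitosis genes. The CHR letters TTTGAA, an element of late cell cycle promoters, lay in 29 of 37 windows of G2 and mitosis genes (78.4%), in 13.9% of those of S phase genes and in 1539 of all tested genes (14.9%). Both were searched on either strand, and TTTGAA is contained in CTTTGAA, a TCF/LEF variant that was also searched. The bases before the start are printed 5′ to 3′ with these letters in capitals for the 2 genes of each list that had a match there and the highest level in TA libraries. They are Rrm1 (chr7:102441445-102441694, plus strand) and Prim1 (chr10:128014965-128015214, plus strand) for E2F, and Hmgb2 (chr8:57511593-57511842, plus strand) and Top2a (chr11:99024190-99024439, minus strand) for CHR, where TTCAAA is the same element on the other strand.
Rrm1: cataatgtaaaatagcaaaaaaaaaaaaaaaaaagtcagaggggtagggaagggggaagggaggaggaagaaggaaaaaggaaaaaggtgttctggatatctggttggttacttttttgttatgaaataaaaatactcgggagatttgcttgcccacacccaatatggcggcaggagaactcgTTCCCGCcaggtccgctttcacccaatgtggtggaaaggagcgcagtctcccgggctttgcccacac
Prim1: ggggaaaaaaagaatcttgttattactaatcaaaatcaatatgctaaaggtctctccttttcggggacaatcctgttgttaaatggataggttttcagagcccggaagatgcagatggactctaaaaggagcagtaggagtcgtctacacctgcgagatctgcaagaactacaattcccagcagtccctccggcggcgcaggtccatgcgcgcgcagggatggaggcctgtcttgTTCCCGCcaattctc
Hmgb2: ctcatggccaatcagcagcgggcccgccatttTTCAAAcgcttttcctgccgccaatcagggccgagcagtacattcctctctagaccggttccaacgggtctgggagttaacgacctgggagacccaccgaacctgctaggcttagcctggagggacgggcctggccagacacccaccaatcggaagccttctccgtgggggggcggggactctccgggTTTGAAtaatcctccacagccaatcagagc
Top2a: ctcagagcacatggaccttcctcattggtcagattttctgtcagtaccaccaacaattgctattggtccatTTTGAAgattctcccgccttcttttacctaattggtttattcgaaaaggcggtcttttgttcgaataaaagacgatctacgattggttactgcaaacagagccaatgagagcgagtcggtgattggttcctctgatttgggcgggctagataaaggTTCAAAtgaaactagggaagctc
The matches began at -67 in Rrm1, at -15 in Prim1, at -218 and -30 in Hmgb2, and at -179 and -23 in Top2a. Rrm1, the other ribonucleotide reductase subunit, gave 41.9, 39.5, 119.8 and 45.2 CPM in the Paneth samples and 207, 179.6, 209 and 263 CPM in the TA samples (log2 fold change -1.97, SE 0.31, edgeR adjusted p = 0.00517). Top2a, the topoisomerase of mitotic chromosomes, was at 70.2, 158, 109.8 and 89.7 CPM in the Paneth fraction and 237, 270.1, 285 and 305 CPM in the TA fraction (log2 fold change -1.42, SE 0.22, edgeR adjusted p = 0.00499).

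Genes of cell cycle exit and of G1 were listed together and were called in both directions. Of 18 tested, 5 were higher, 6 were lower and 7 were not called, beside 16.4% higher and 12.8% lower over all genes. The list's median log2 fold change was -0.08 (0.03 with totals that left out the granule products). Cdkn1c, an inhibitor of cyclin-dependent kinases, had 34, 113, 39.4 and 46.4 CPM in the Paneth samples, against 0.642, 1.35, 0.512 and 0.238 CPM in the TA samples (log2 fold change 6.43, SE 0.37, edgeR adjusted p = 0.000201). Cdkn1a, the p21 gene, measured 135, 221, 191 and 232 CPM in the Paneth fraction, against 24.9, 30.9, 25.4 and 50.2 CPM in TA (log2 fold change 2.60, SE 0.19, edgeR adjusted p = 0.000411). Each Paneth library was above each TA library for both, with BO27 the highest Paneth library for Cdkn1c. Cdkn1b, Rb1 and Btg1 were also higher, the call of Btg1 being lost without BN44, BO27 or BP03 and those of Btg1 and Rb1 with library totals alone. Myc, a growth regulator, gave 40.8, 40.2, 40.5 and 45.3 CPM in the Paneth samples and 125, 95.5, 88.7 and 87.1 CPM in the TA samples (log2 fold change -1.23, SE 0.18, edgeR adjusted p = 0.00413). Lower too were the G1 drivers Ccnd1, Ccnd2, Cdk4 and Mycn and the inhibitor gene Cdkn2b, of which Cdk4, Mycn and Cdkn2b lost their call without BN44, without BO27 and without 1 further animal, and Ccnd2 had a log2 fold change of -1.78 (SE 0.20).

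**Figure D5:**
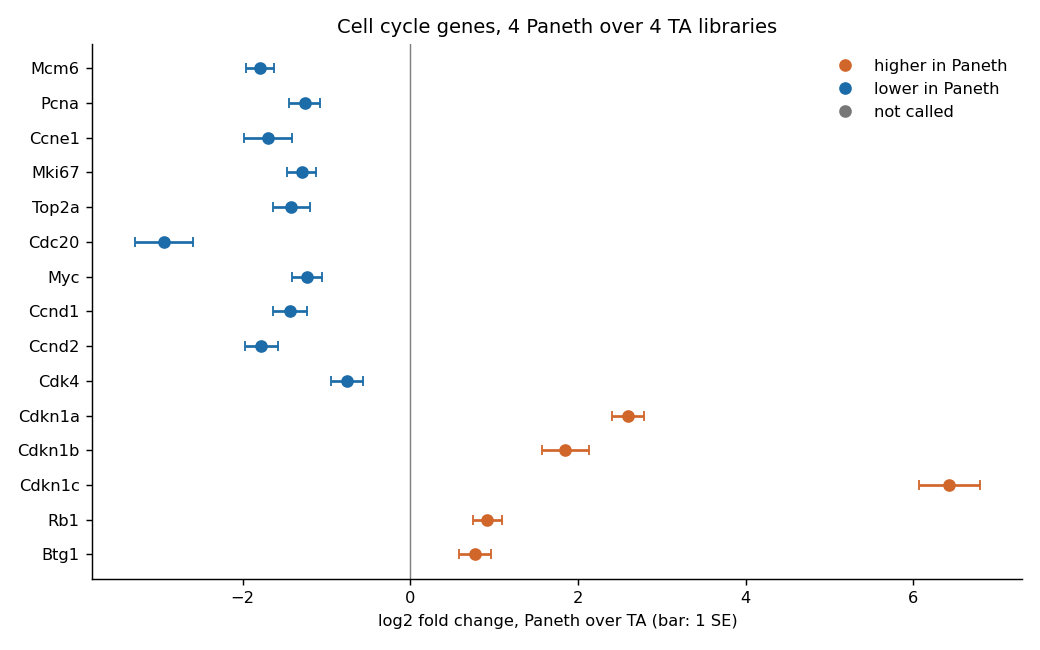
Log2 fold change, Paneth minus TA, of 15 cell cycle genes, with bars of 1 standard error. Replication, mitosis and G1 drivers such as Mcm6, Cdc20 and Myc lie below 0, and the inhibitors Cdkn1a, Cdkn1b and Cdkn1c with Rb1 and Btg1 lie above 0. The 15 genes are a selection, and the inhibitor gene Cdkn2b, which was lower, is not plotted. Of all 18 tested genes of cell cycle exit and G1, 8 had fold changes above 0 and 10 below.

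Genes of ribosome production were lower in part. Of 24 genes of ribosome biogenesis, 12 were lower and 12 were not called, with a median log2 fold change of -0.80, and without BN44 5 were lower. Nop56, a box C/D particle component, was at 74.3, 25.8, 80.8 and 65.5 CPM in the Paneth fraction and 192, 189, 191 and 183 CPM in the TA fraction (log2 fold change -1.73, SE 0.30, edgeR adjusted p = 0.00697). Rrp9, Gnl3 and Nolc1 had log2 fold changes of -2.04, -1.06 and -1.25. Of 47 genes of cytosolic ribosomal proteins, 5 were lower (Rpl3, Rpl4, Rpl15, Rplp0 and Rps2) and 42 were not called, a share below the 12.8% of all genes, with 43 fold changes below 0 and a median of -0.50. The count of lower genes was 37 with library totals alone and 3 without BO27, 6 without BO58 and 2 without BP03, and the 5 calls were lost without BN44. Of 13 mitochondrially encoded genes, mt-Atp8 was lower (log2 fold change -0.65, SE 0.17, edgeR adjusted p = 0.0284), 12 were not called and the median was -0.13. The call of mt-Atp8 was lost without BN44, BO27 or BP03 (edgeR adjusted p = 0.121, 0.0987 and 0.0848) and without the animal block (0.178), and its groups overlapped.

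Genes of the endoplasmic reticulum were called in both directions, at shares near or below those of all genes (16.4% higher and 12.8% lower). Of 40 tested, 5 were higher (Dnajb9, Ern1, Atf6, Edem1 and Syvn1), 5 were lower (Hspa5, Pdia3, Pdia4, Pdia6 and Dnajb11) and 30 were not called, with a median log2 fold change of 0.04 (-0.47 with library totals alone). With library totals alone 13 were lower and the 5 higher genes lost their call, while 2 were higher and 2 lower without BN44, 3 and 1 without BO27, and 1 and 1 without BP03. The 5 lower genes are chaperones and disulfide isomerases of protein folding, 5 of 27 tested for import and folding. Of the 13 sensors and effectors of the unfolded protein response, 4 were higher, and the difference between these roles was not tested. Hspa5, the chaperone BiP, had 783, 414, 687 and 683 CPM in the Paneth samples, against 1074, 913, 892 and 1237 CPM in the TA samples (log2 fold change -0.71, SE 0.22, edgeR adjusted p = 0.0495). Dnajb9, a co-chaperone of BiP, measured 236, 167, 176 and 199 CPM in the Paneth fraction, against 94.4, 91.6, 75.4 and 114 CPM in TA (log2 fold change 1.05, SE 0.17, edgeR adjusted p = 0.00573). The groups did not overlap for either gene. The call of Hspa5 was lost without BN44, BO27 or BP03 (edgeR adjusted p = 0.102, 0.195 and 0.185), without the animal block (0.0576) and with RLE scaling (0.0514), and that of Dnajb9 with library totals alone (0.14). Xbp1, the transcription factor of this response, gave 369.5, 328, 383 and 396 CPM in the Paneth samples and 410, 381, 292 and 356 CPM in the TA samples (log2 fold change 0.04, SE 0.19, edgeR adjusted p = 0.876).

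Defining markers of T and B cells were near 0, while Vim and, in 2 animals, haemoglobin were not. The sum of 14 T cell genes came to 2.46, 3.5, 7.68 and 19.7 CPM in the Paneth fraction and 2.28, 1.57, 1.68 and 2.9 CPM in the TA fraction. Lck and Gzma, the 2 tested, had log2 fold changes of 1.50 and 1.14 and missed the threshold (edgeR adjusted p = 0.196 and edgeR adjusted p = 0.453). Cd3e, part of the T cell receptor complex, was at 0.0912, 0.177, 0.0724 and 0 CPM in the Paneth fraction and 0, 0, 0 and 0 CPM in the TA fraction, and Cd3d was also at 0 in all TA libraries. The sum of 11 B and plasma cell genes came to 6.66, 11.2, 9.71 and 2.96 CPM in the Paneth fraction and 5.69, 5.03, 2.83 and 5.27 CPM in the TA fraction. Its 3 tested members Ms4a1, Derl3 and Cd79b missed the threshold (edgeR adjusted p = 0.11, edgeR adjusted p = 0.147 and edgeR adjusted p = 0.52). Of 16 myeloid and mast cell genes only 3 were tested, and the 1 called was Lyz2, which Paneth libraries also hold as a near-identical copy of Lyz1. Of 18 stromal, endothelial and neural genes only 5 were tested. Of these Elavl4, a neuronal RNA-binding protein gene known from endocrine cells too, was called, with 316 counts in Paneth libraries and 3 in TA libraries. Col3a1, Myh11 and Pdgfra each had 16 counts in Paneth and 1 in TA libraries, a ratio of 28.1 (95% counting interval 4.37 to 1180). The sum of these 18 genes came to 18.55, 91.41, 56.97 and 32.07 CPM in the Paneth fraction and 12.4, 16.02, 3.172 and 2.168 CPM in the TA fraction. In Paneth libraries most of it was Vim, a vimentin gene of mesenchymal and other cells, at 12.4, 78.7, 48.2 and 23.7 CPM in the Paneth fraction and 10.3, 10.8, 1.12 and 0.065 CPM in the TA fraction (log2 fold change 3.90, SE 1.25, edgeR adjusted p = 0.0534). Its groups did not overlap, it missed the threshold, and its part in the other results was not tested.

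Hbb-bs, a haemoglobin chain gene of red cells, had 1.05, 2.04, 184 and 416 CPM in the Paneth samples, against 0, 0, 0.0244 and 0 CPM in the TA samples (log2 fold change 13.92, SE 0.53, edgeR adjusted p = 5.81e-05). The Paneth libraries of BO58 and BP03 were high and those of BN44 and BO27 close to the TA libraries. The SE and p of Hbb-bs do not carry this spread, which the animal block absorbs. Without the block, the adjusted p of Hbb-bs by edgeR was 0.00314. Over the groups it had 14717 counts in Paneth and 1 in TA libraries, a ratio of 25900 with a 95% counting interval from 4640 to 1020000. Hba-a1, a near-identical copy of Hba-a2, measured 0, 0.0442, 74.2 and 246 CPM in the Paneth fraction, against 0, 0, 0.0488 and 0.0217 CPM in TA. The part of red cells in the other results was not tested.

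The same difference was measured in the knockout mice, which are Setd1aFC/FC; Lgr5-eGFP-CreERT2. In 1 fit of 16 libraries, the difference between fractions in knockout minus that in control was tested for 18262 genes, and 0 (0%) passed edgeR's threshold, with 760 at an unadjusted p below 0.05. DESeq2 without the animal block called 17 genes, 6 higher and 11 lower, and edgeR without it 1, Cyp2c55. Setd1a itself averaged 5.91 ± 1.23 and 4.91 ± 0.876 CPM in knockout Paneth and TA libraries, against 9.17 ± 3.81 and 4.46 ± 1.24 CPM in control Paneth and TA libraries (SD, n = 4 each). Its counts sum all exons, so they do not check the genotype. Cre was driven from a stem cell gene, and loss of Setd1a from the sorted Paneth and TA cells was not shown. The fit therefore cannot decide whether the difference between the fractions depends on Setd1a. In control animals alone Setd1a gave 6.52, 14.6, 6.3 and 10.5 CPM in the Paneth samples and 3.27, 6.53, 4.07 and 4.86 CPM in the TA samples, and missed the threshold (log2 fold change 0.97, SE 0.32, edgeR adjusted p = 0.0569). Cyp2c55, a cytochrome P450 gene, averaged 11.8 ± 8.19 and 7.25 ± 2.32 CPM in knockout Paneth and TA libraries, against 0.0841 ± 0.102 and 6.98 ± 3.52 CPM in control ones, and its adjusted p by edgeR was 0.874. Defa24 averaged 237500 ± 203000 and 994 ± 929.8 CPM in knockout Paneth and TA libraries, against 134000 ± 94950 and 443 ± 128 CPM in control ones. Mki67 averaged 52.9 ± 10.8 and 159 ± 28.0 CPM in knockout Paneth and TA libraries, against 65.1 ± 5.78 and 159.8 ± 30.9 CPM in control ones. For Defa24 and Mki67 the difference between the genotypes was 0.10 (SE 0.80) and -0.32 (SE 0.20) on the log2 scale, which missed the threshold (edgeR adjusted p = 1.0 for each). The direction between the fractions was the same in both genotypes for both genes.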

How the data were processed

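Live crypt cells were sorted and their RNA was made into cDNA, amplified in 17 cycles, of which 3 ng was tagmented, per the labels' protocols. Counts per gene were used as deposited: the authors counted fragments of read pairs with featureCounts 2.0.1 on Ensembl 98 gene models of mm10, unstranded and at a mapping quality of at least 1, per the file headers, after bcl2fastq 2.20.0, per the submitters' processing notes. For the aligner, a version is not given in the sources. Counting took no account of strand, so reads of a gene and of its antisense partner are mixed. The table held 55421 genes and 92 ERCC spike-in sequences, which were left out and never exceeded 6 counts in 1 library, and 0 columns belonged to no sample. Gene lengths in the deposited table were used for CPM per kb.

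Genes were filtered with filterByExpr, which left 39244 of them untested, and libraries were TMM-scaled. Testing was by edgeR 4.0.16, with its quasi-likelihood F test (limma 3.58.1, R 4.3.3) at a Benjamini-Hochberg adjusted p below 0.05, and with glmTreat for changes past 2-fold. The 2 libraries of an animal share its code in the titles, so animal was a block in the fit. After subtracting group means, libraries of the same animal correlated at 0.170, 0.098, 0.029 and 0.078 across genes. The genotype comparison used the same test on 16 libraries with animals as blocks. DESeq2 1.42.0 was an alternative, with other scalings, other filters on low counts, no replicate block and each animal left out. The steps were tested on simulated data. Python 3.11.15, pandas 2.3.3, numpy 2.4.6 and matplotlib 3.10.9 made tables and plots.

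The comparison and the 23 lists, of 662 symbols of which 15 were not in the table, were chosen with earlier results of these data known. Named genes were, in each direction, the 15 of largest fold change with a mean of at least 20 CPM and the 5 of smallest p, up to 4 of smallest p in each list, a fixed set of genes, the 8 of largest range and the 10 of highest mean among Paneth libraries. Symbols of Gm and digits, ending in Rik or -ps, and IDs with no symbol were left out of the fold change and p rules. Other list members are named as examples of their group. A few genes that these rules or lists hold are not reported here. A count of 0 was taken to allow 3 counts over the group, which is 0.0315 CPM over Paneth and 0.0179 CPM over TA libraries. These limits and the counting intervals, which are exact at 95%, cover counting error only.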

Additional observations from a re-analysis of the deposited data

Results flagged for a closer look

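In 12 of 176 groups of 4 libraries examined, a single library lay further from the rest than Dixon's 95% criterion allows, and chance alone gives about 1 in 20 groups. In Paneth libraries the level of BO27 was low for Sst, at 300.8 CPM, and that of BN44 was low for Jag2, at 3.15 CPM. The Paneth library of BO58 was high for Alox5ap, Isl1 and Rrm1, at 911.7, 272.8 and 119.8 CPM, and low for Ang4, at 3192 CPM. Myc was high in the Paneth library of BP03, at 45.3 CPM, where the other 3 lay close together. Among TA libraries, Kit was high in that of BN44, at 9.62 CPM, and Sox9 was low in that of BP03, at 16.7 CPM. Of the summed lists, Paneth granule products were low in the TA library of BO58, at 5265 CPM. Most of this sum was of the other antimicrobial genes, at 7290, 8149, 4285 and 7937 CPM in TA libraries. The α-defensin sum, at 657, 614, 693 and 436 CPM, and the lysozyme sum, at 174, 95, 224 and 109 CPM, were instead highest in the TA library of BO58. Tuft cell genes were high in the TA library of BN44, at 2010 CPM, and mitochondrially encoded genes were low there, at 82010 CPM. The largest part of the tuft sums was of cytoskeleton genes, at 1088, 872, 779 and 942 CPM in TA libraries. Chemosensory genes were at 51.8, 50, 37.5 and 44.7 CPM and transcription genes at 87.1, 89.2, 81.5 and 64 CPM. Cytokine and surface genes and haematopoietic signalling genes were also highest in BN44, while eicosanoid and other tuft genes were not. What set these libraries apart was not tested.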

How the results depend on the processing

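The count of 4714 called genes was 6691 with DESeq2, 4707 with RLE scaling, 5239 with library totals alone and 4624 with totals that left out the Paneth granule products, the last chosen after the data were seen. It was 4248 of 10552 genes with a mean of at least 5 CPM and 4867 of 38884 with no filter on low counts. Without the replicate block it was 4721, of which 4217 were among the 4714. Leaving out 1 animal gave 2420 to 4481 calls, and 689 to 902 past 2-fold. In these leave-outs at least 4687 of the 4714 genes kept their sign. Fewer animals were left in each such fit. For the difference between knockout and control, 17 genes were called by DESeq2 and 1 by edgeR without the replicate block, and 0 without any 1 of the 8 animals, where 622 to 1140 genes had an unadjusted p below 0.05.

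Of 121 named genes that were called, 99 were called in the same direction under every alternative in which they were tested. Of these 121, 16 lost their call without BN44, 11 without BP03, and, of the 120 tested there, 9 without BO27 and 7 without BO58. Without the replicate block 7 of the 121 were lost, and with DESeq2 0. Some genes that were not called changed sign with library totals alone, namely Itgam (-0.114), Atoh1 (-0.34), Dll1 (-0.266), Xbp1 (-0.468) and mt-Co1 (-0.293). With 1 animal left out, Atoh1 ran from -0.132 to 0.70, Xbp1 from -0.082 to 0.132 and Cd68 from -0.738 to 0.635. Xbp1 was at -0.015 with no filter on low counts and Cd68 at 0.162 without the replicate block. List medians changed sign with library totals alone for crypt base stem cell genes (-0.031), Notch genes (-0.237), endoplasmic reticulum genes (-0.473) and myeloid genes (-0.114). The median of cell cycle exit genes was 0.028 with totals without granule products and ran from -0.263 to 0.091 with 1 animal left out, and that of endoplasmic reticulum genes ran from -0.171 to 0.05. Beyond the loss of samples or genes, the cause was not tested. Genes near 0 in TA libraries are limited by depth, and their fold changes there are bounds or wide ratios.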

Other observations

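Ugt2a3, a glucuronosyltransferase gene, had 9.48, 12.4, 24.7 and 23.8 CPM in the Paneth samples, against 50.9, 65.5, 96.4 and 117 CPM in the TA samples (log2 fold change -2.27, SE 0.18, edgeR adjusted p = 0.000477). Arg2, a mitochondrial arginase gene, measured 17.5, 54.8, 142 and 91.9 CPM in the Paneth fraction, against 273, 439, 394 and 468 CPM in TA (log2 fold change -2.69, SE 0.40, edgeR adjusted p = 0.0046). The groups did not overlap for either gene. Rbp7, a cellular retinol-binding protein gene, had a log2 fold change of -3.01 (SE 0.34, edgeR adjusted p = 0.00182), and Ugt1a1 one of -3.95 (SE 0.97, edgeR adjusted p = 0.0233), a call that was lost without BN44. Genes of the Ugt1a cluster share exons, so the split of reads between Ugt1a1 and Ugt1a7c is uncertain.

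The stem fraction of the same control animals did not lie between the Paneth and TA fractions for some genes and did for others. Hes1 averaged 36.4 ± 7.79 CPM in Paneth, 140 ± 64.8 in stem and 98.7 ± 36.7 in TA libraries, and Sox9 237 ± 83.5, 97.4 ± 21.9 and 30.7 ± 8.68 CPM (SD, n = 4 each). Muc2 averaged 744 ± 580 CPM in Paneth, 10.1 ± 6.67 in stem and 1197 ± 610 in TA libraries. Cdkn1a averaged 208 ± 46.1 CPM in Paneth, 8.55 ± 4.39 in stem and 35.02 ± 12.4 in TA libraries. These are values without a test.

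Afp, a fetal serum protein gene, varied most among Paneth libraries, at 36.4, 521, 4.85 and 0.0435 CPM, against 0.911, 14.7, 5.81 and 0 CPM in TA libraries (edgeR adjusted p = 0.0573). In each animal but BO58 the Paneth library held more than the TA library. Xist and the Y-linked genes followed the animal in both fractions, with Xist high in BN44 and BP03 and Ddx3y and Eif2s3y found in BO27 and BO58. CT010467.1, a gene with no role given in these sources, was among the 10 most abundant of the Paneth libraries and gave 31780, 45340, 6565 and 27840 CPM in the Paneth samples and 2151, 4847, 3462 and 1734 CPM in the TA samples (log2 fold change 3.08, SE 0.62, edgeR adjusted p = 0.0115), a call lost without BP03 (edgeR adjusted p = 0.0533).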
